A study of Homo sapiens with 6 samples.

Results

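The genes described here are 8 parts of the switch that starts or restrains caspases, the proteases that carry out apoptosis. They were taken from the deposited table by symbol, and each of APAF1, CYCS, CASP9, CASP8, BIRC2, BIRC3, XIAP and DIABLO matched 1 of its 18969 rows. The cells were HK-2, a human proximal tubule line immortalised with papillomavirus oncogenes, and messenger RNA was sequenced after cisplatin at 20 µM, a platinum drug that damages DNA and injures the kidney tubule. The 3 control libraries came from cells labelled WT, and the 3 others from cells labelled Nfe2l1 overexpression. Both groups had received cisplatin, so every comparison is between treated cells, and no untreated culture was analysed here. How overexpression was achieved, how long after cisplatin the RNA was taken and whether controls carried an empty vector were not given in the sources used here, and HK-2 is a single immortalised line.

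Mitochondria that lose their outer membrane release cytochrome c, which binds APAF1 and builds the apoptosome, a wheel-shaped platform on which caspase-9 becomes active. Death receptors at the cell surface take another route and activate caspase-8. Inhibitor of apoptosis (IAP) proteins hold this machinery in check: XIAP blocks caspases directly, while BIRC2 and BIRC3 (cIAP1 and cIAP2) are ubiquitin ligases that steer TNF receptor and NF-kB signalling. DIABLO (Smac), released with cytochrome c, binds IAP proteins and relieves the block. In the kidney, cisplatin is known to engage both routes in tubule cells.

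Libraries held 16865460 to 23458333 counted reads. NFE2L1, the gene named in the labels, stood at 234.2 to 253.4 CPM (counts scaled to TMM-adjusted library size) in controls, and at 244.7, 744.0 and 339.5 CPM in libraries 1, 2 and 3 labelled overexpression. Library 1 therefore lay within the control range. Between groups NFE2L1 had a log2 fold change of 0.86 and did not pass (edgeR adjusted p = 0.115). The library labels are used as given. Among renal identity markers, PAX8 (79.2 to 227.7 CPM over the 6 libraries) and MME had a control mean of at least 5 CPM. MME was lower in the libraries labelled overexpression, with a mean of 7.04 CPM against 20.2 CPM in controls. PAX2 and GGT1 reached at most 1.92 CPM, and the proximal tubule genes AQP1 and SLC34A1 at most 0.515 CPM. ANPEP, LRP2 and CUBN, also looked up, had no row in the table used here. Of 5 epithelial genes looked up, KRT8, KRT18, KRT19 and EPCAM were present at 40.0 CPM or more in every library, and CDH1 had no row. Of the markers of other cell types in the table only the fibroblast gene COL1A1 passed 5 CPM (6.68 to 12.0 CPM). No label says whether libraries came from separate cultures, so the spread that p-values rest on may be technical. In bulk RNA, a lower count in fewer cells and a lower count in every cell cannot be told apart.

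The stretches upstream of 3 of the genes are shown because APAF1 and BIRC2 are the members that passed the test between groups, and because BIRC2 and BIRC3 are neighbouring paralogs whose upstream sequences differ in one motif. Each run holds the 250 bases before the most upstream RefSeq start (GRCh38.p14, plus strand, 5′ to 3′), and capitals mark matches to the NF-kB consensus known as kappaB, searched on both strands. The intervals are chr11:102317234-102317483 for BIRC3, chr11:102346964-102347213 for BIRC2 and chr12:98645040-98645289 for APAF1.
BIRC3: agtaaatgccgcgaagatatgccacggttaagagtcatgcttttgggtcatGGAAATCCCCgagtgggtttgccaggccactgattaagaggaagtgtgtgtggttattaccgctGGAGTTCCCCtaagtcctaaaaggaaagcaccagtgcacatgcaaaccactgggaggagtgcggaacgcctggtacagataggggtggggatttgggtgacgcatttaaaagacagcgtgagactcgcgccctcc
BIRC2: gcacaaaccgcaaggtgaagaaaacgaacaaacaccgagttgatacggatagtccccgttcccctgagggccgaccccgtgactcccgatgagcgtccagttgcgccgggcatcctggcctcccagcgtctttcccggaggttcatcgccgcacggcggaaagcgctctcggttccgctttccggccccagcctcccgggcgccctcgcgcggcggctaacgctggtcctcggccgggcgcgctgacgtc
APAF1: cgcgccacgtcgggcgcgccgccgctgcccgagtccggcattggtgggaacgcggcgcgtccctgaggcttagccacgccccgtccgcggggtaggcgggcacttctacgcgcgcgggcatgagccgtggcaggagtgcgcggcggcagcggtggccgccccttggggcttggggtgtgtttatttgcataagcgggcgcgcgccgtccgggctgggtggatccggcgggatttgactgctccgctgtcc
BIRC3 had 2 matches, ending 190 and 126 bases before the start, and the other 7 genes had 0 in the same window. A match was present in 9.58% of 27305 human genes with such a window. The core of the antioxidant response element, TGACNNNGC, which CNC factors such as NFE2L1 bind, and the cyclic AMP element TGACGTCA had 0 matches in all 8 windows, against 11.1% and 1.75% of genes. The BIRC2 window ends in tgacgtc, the cyclic AMP element without its last letter, and a site that crosses the window's end could not be seen. GC content of the windows was 52.4% in BIRC3, 67.6% in BIRC2 and 73.6% in APAF1.

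The genes differed widely in level. In deposited FPKM (fragments per kilobase of transcript, scaled to library size), control means were 89.5 ± 13.2 for CYCS, 36.9 ± 2.76 for CASP8, 22.6 ± 1.47 for BIRC2 and 12.3 ± 0.544 for XIAP (SD, n = 3). Below them were APAF1 at 8.10 ± 1.13, BIRC3 at 7.75 ± 2.68, CASP9 at 5.12 ± 0.347 and DIABLO at 0.921 ± 0.251 FPKM. In controls only APAF1 with BIRC3, and BIRC3 with CASP9, overlapped among neighbours in this order. In the libraries labelled overexpression CYCS (86.0 ± 12.3 FPKM) and CASP8 (27.4 ± 4.98) again came first, and BIRC2 (10.3 ± 1.39) and XIAP (10.1 ± 4.79) overlapped (SD, n = 3 each). CASP9 (4.52 ± 0.439 FPKM), BIRC3 (4.31 ± 2.65), APAF1 (3.37 ± 1.06) and DIABLO (0.644 ± 0.330) followed, where BIRC3 overlapped both of its neighbours. The order depends on the length used: per kilobase of all GENCODE 29 exons, CASP8 in controls stood at 12.9 CPM and BIRC2 at 18.0, because the exons of CASP8 add up to 7.24 kb while its FPKM rests on 2.66 kb.

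**Figure D1:**
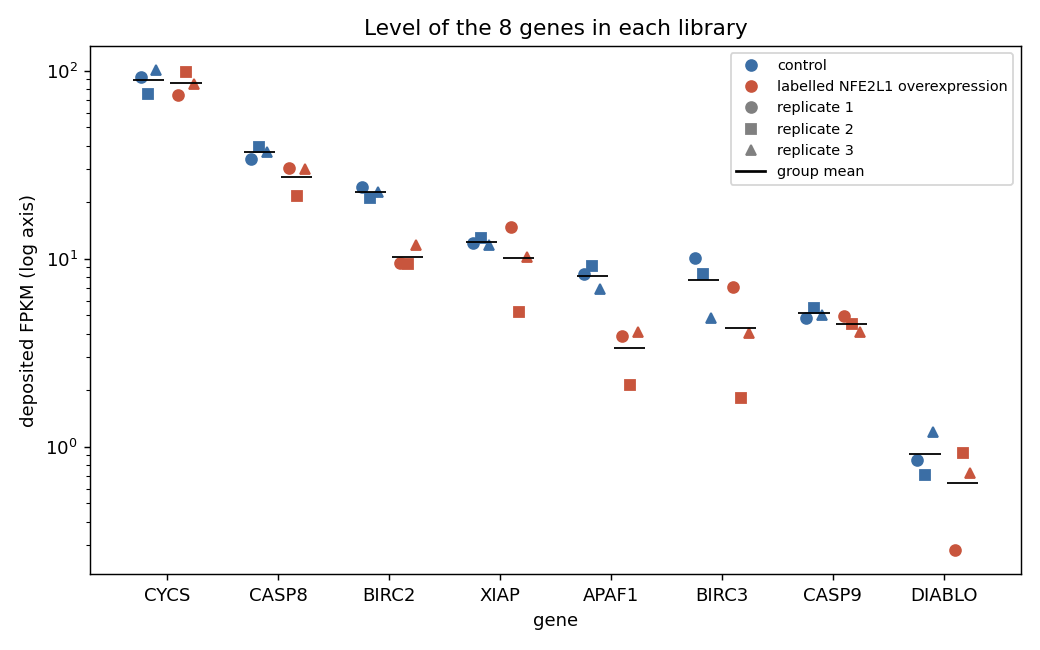
Deposited FPKM of the 8 genes in each library on a log axis, with one symbol per replicate number and a black line at the group mean. The 3 libraries labelled overexpression lie below all controls for BIRC2, APAF1 and CASP8, and DIABLO is near or below 1 FPKM throughout.

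APAF1, the scaffold of the apoptosome (ENSG00000120868, chromosome 12, 98645290 to 98735433, plus strand, GRCh38.p13), fell to a lower level in every library labelled overexpression. It was measured at 57.7, 63.1 and 46.5 CPM in the 3 controls and at 29.1, 16.9 and 29.7 CPM in the 3 others. Every one of these was below every control, and library 2, where NFE2L1 was highest, was the lowest. Library 1, where NFE2L1 lay within the control range, was close to library 3. Library 2 also had the lowest relative level of the longest genes, described below. A relation to the level of NFE2L1 was not tested. Group means stood at 55.7 ± 8.45 and 25.3 ± 7.20 CPM (SD, n = 3 each). In log2 terms the difference was -1.14 (SE 0.25, edgeR adjusted p = 0.0185), and 2.80% of tested genes ranked at or below it. For APAF1 the authors' deposited table has -1.18 (adjusted p = 0.000422). In GENCODE 29, 9.48% of its exon bases lie opposite exons of ANKS1B, which held at most 15 counts in any library; whether reads were counted by strand is not stated in the sources used here.

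The other components of the apoptosome did not pass. CYCS, cytochrome c (ENSG00000172115, chromosome 7, 25118656 to 25125260, minus strand), held 483.2, 392.3 and 515.5 CPM in controls. In libraries 1, 2 and 3 labelled overexpression it held 418.7, 587.5 and 470.2 CPM, so the groups overlapped, with library 2 the highest of all 6. Its log2 fold change was 0.086 (95% interval -0.31 to 0.48, edgeR adjusted p = 0.758). On deposited FPKM, where libraries labelled overexpression sum to more, it was -0.056 (limma adjusted p = 0.821). CYCS has 40 pseudogenes by name in GENCODE 29, of which 1 had a row in the table, so its count is uncertain.

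CASP9, the initiator caspase recruited by APAF1 (ENSG00000132906, chromosome 1, 15490832 to 15526534, minus strand), was a low and even transcript. It held 13.05, 14.9 and 13.3 CPM in controls and 14.6, 13.8 and 11.7 CPM in the libraries labelled overexpression. The groups overlapped, and the log2 fold change was -0.042 (95% interval -0.49 to 0.41, edgeR adjusted p = 0.901). Within libraries, the FPKM of APAF1 divided by that of CASP9 was 1.72, 1.66 and 1.36 in controls and 0.778, 0.479 and 0.993 in libraries 1, 2 and 3 labelled overexpression. By the lengths behind the FPKM, APAF1 was thus above CASP9 in the 3 controls and below it in the 3 others. Per kilobase of GENCODE 29 exons it was above CASP9 in both groups, at mean levels of 7.05 against 2.61 CPM in controls and 3.19 against 2.53 CPM in the others.

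CASP8, the initiator caspase of death receptors (ENSG00000064012, chromosome 2, 201233443 to 201287711, plus strand), did not pass the test. Its level was 87.2, 101.1 and 92.4 CPM in controls and 84.3, 63.1 and 80.8 CPM in libraries 1, 2 and 3 labelled overexpression. The groups did not overlap, although the lowest control and library 1 labelled overexpression were close. The log2 fold change came to -0.30 (SE 0.17, 95% interval -0.68 to 0.081, edgeR adjusted p = 0.234). The FPKM of CASP8 was 7.05 to 7.34 times that of CASP9 in controls, and 6.10, 4.83 and 7.32 times in libraries 1, 2 and 3 labelled overexpression.

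BIRC2, the ubiquitin ligase cIAP1 (ENSG00000110330, chromosome 11, 102347211 to 102378670, plus strand), fell in all 3 libraries labelled overexpression. Its level was 87.2, 76.4 and 80.5 CPM in controls and 37.3, 38.8 and 45.1 CPM in the others. The groups were far apart, and library 1, in which NFE2L1 was within the control range, was the lowest. Group means stood at 81.4 ± 5.44 and 40.4 ± 4.14 CPM (SD, n = 3 each), and the log2 difference was -1.01 (SE 0.16, edgeR adjusted p = 0.0109). For BIRC2 the authors' deposited table has -1.04 (adjusted p = 6.06e-06). BIRC2 and its paralog BIRC3 lie on the same strand, 7.81 kb apart.

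BIRC3, cIAP2, a well-known target of NF-kB (ENSG00000023445, chromosome 11, 102317450 to 102339403, plus strand), varied within both groups. Controls held 67.2, 54.6 and 31.3 CPM, and libraries 1, 2 and 3 labelled overexpression held 50.9, 13.7 and 27.9 CPM. The groups overlapped: library 1 labelled overexpression was above control 3. The log2 fold change came to -0.73 (SE 0.44, 95% interval -1.73 to 0.27, edgeR adjusted p = 0.266). Leaving out library 1 labelled overexpression gave -1.30 (edgeR adjusted p = 0.0437), and leaving out library 2 gave -0.38 (adjusted p = 0.420). Among the 3 IAP genes BIRC3 had the largest spread between controls, 51.1 ± 18.2 CPM (SD, n = 3).

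XIAP, the direct caspase inhibitor (ENSG00000101966, chromosome X, 123859724 to 123913976, plus strand), went both ways among the libraries labelled overexpression. Controls were close together at 100.3, 106.1 and 95.1 CPM, while libraries 1, 2 and 3 held 132.0, 49.1 and 88.1 CPM. Library 1 was thus above all controls and libraries 2 and 3 were below them. Over all 6 libraries the log2 fold change came to -0.16 (SE 0.30, 95% interval -0.85 to 0.52, edgeR adjusted p = 0.729), and leaving out library 2 gave 0.12. XIAP has 3 pseudogenes by name in GENCODE 29, none with a row in the table.

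Summed over the 3 IAP genes, deposited FPKM was lower in the libraries labelled overexpression. The FPKM of BIRC2, BIRC3 and XIAP summed to 46.4, 42.3 and 39.5 in controls and to 31.4, 16.4 and 26.1 in libraries 1, 2 and 3 labelled overexpression. XIAP made up 26.2%, 30.5% and 30.0% of that sum in controls, and 47.1%, 31.8% and 39.1% in the others. BIRC2 made up 50.0 to 57.7% in controls and 30.3%, 57.2% and 45.5% in libraries 1, 2 and 3 labelled overexpression, so its share overlapped. These sums and shares are descriptions of each library and were not tested. They are not corrected for the differences between libraries in how counts followed gene length and GC content, described below. In log2 terms, those differences between groups came to -0.54 for BIRC2, -0.75 for BIRC3 and -0.73 for XIAP. Once they were taken out, XIAP was higher in every library labelled overexpression than in any control.

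**Figure D2:**
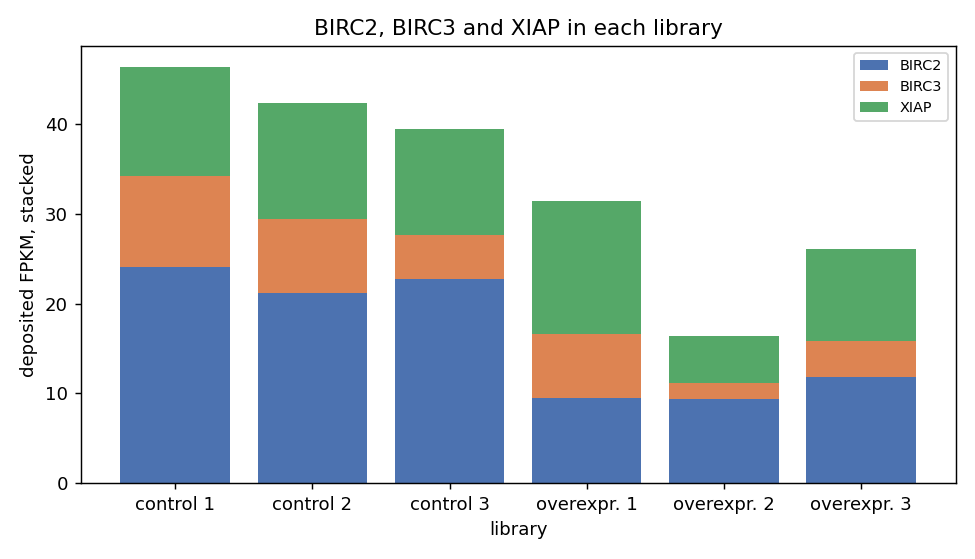
Deposited FPKM of BIRC2, BIRC3 and XIAP stacked for each library, not corrected for differences between libraries in how counts followed gene length and GC content. The sum is 39.5 to 46.4 in controls and 16.4 to 31.4 in the libraries labelled overexpression, where library 2 is the lowest and library 1 has the most XIAP.

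DIABLO, the IAP antagonist (ENSG00000184047, chromosome 12, 122207663 to 122227456, minus strand), could hardly be measured. Controls held 28, 23 and 35 counts, and libraries 1, 2 and 3 labelled overexpression held 7, 32 and 23 counts, or 0.433 to 1.66 CPM over the 6 libraries. The groups overlapped, and the log2 fold change of -0.34 had a 95% interval from -1.38 to 0.70 (edgeR adjusted p = 0.631). In GENCODE 29, 55.8% of its 1285 coding bases lie in exons of other genes on the same strand, namely AC048338.1 and a second gene model also named DIABLO (ENSG00000284934), which were not analysed here. How reads in the shared bases were counted is not stated in the sources used here, so the level printed need not be that of all DIABLO transcripts.

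As a group, all 8 genes passed the filter on low counts, 2 fell and 0 rose at an adjusted p under 0.05. Over all 15046 genes tested, 9.49% fell and 9.62% rose by the same rule. Groups did not overlap, with the libraries labelled overexpression lower, in 3 of the 8 (APAF1, BIRC2 and CASP8) and in 20.9% of all genes. The median log2 fold change was -0.32 for the 8 genes and 0.031 for all genes, and 7 of 8 values were negative, against 48.3% over all genes. Of 8 genes, 2 and 3 are too few to set them apart from the rest. Both calls were lost without control 1 (edgeR adjusted p = 0.0936 for APAF1 and 0.0811 for BIRC2, with 0.00643% of all genes falling) and without control 2 (0.0877 and 0.0694, with 0% of all genes falling). Without library 1 labelled overexpression, 3 of 8 fell, BIRC3 being the third, and 8.57% of all genes did. The fold changes of APAF1 and BIRC2 were negative under all 24 alternatives run, from -1.34 to -0.50 for APAF1 and from -1.36 to -0.37 for BIRC2. So were those of CASP8 under all 24, and of DIABLO under the 20 that gave a value, though neither passed in the main fit. All alternatives reuse the same libraries, and the share of all genes with so steady a sign was not counted.

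The libraries differed in how counts followed gene length and base composition, and most of the 8 genes are long and poor in GC. Their median length was 4.60 kb and median GC content 41.7%, against 2.92 kb and 47.9% over all tested genes. APAF1 and XIAP fall in the longest of 10 bins of gene length, where the median log2 fold change was -0.49. In that bin the median deviation of a library from each gene's mean over the 6 libraries was 0.33, 0.43 and 0.069 in controls and 0.018, -0.66 and -0.16 in libraries 1, 2 and 3 labelled overexpression, in log2 units. CYCS and BIRC3 fall in the ninth bin (median -0.40), BIRC2 in the seventh (-0.19), CASP9 and CASP8 in the fifth (0.13) and DIABLO in the third (0.37). BIRC2, DIABLO, APAF1, CASP8, BIRC3 and CASP9 lay 0.82, 0.70, 0.65, 0.42, 0.33 and 0.17 below the medians of their bins, and CYCS and XIAP lay 0.49 and 0.33 above.

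**Figure D3:**
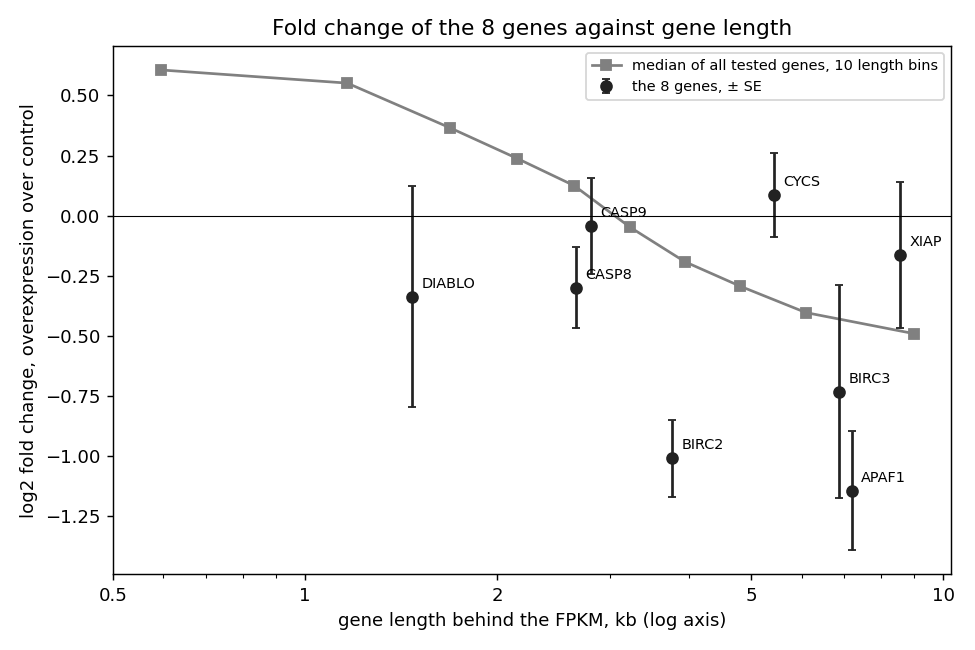
Log2 fold change of the 8 genes, with standard error bars, against the gene length behind the FPKM on a log axis, with the median of all tested genes in 10 length bins in grey. The grey line falls from 0.61 to -0.49, CYCS and XIAP lie above it, and the other 6 genes lie below it.

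A smooth in gene length and GC content was then taken out of each library before the fit. With this offset 0 of the 8 genes passed in either direction, where 0.485% of all genes fell and 0.904% rose. APAF1 had a log2 fold change of -0.56 (95% interval -0.88 to -0.23, edgeR adjusted p = 0.0822) and BIRC2 of -0.47 (-0.80 to -0.13, adjusted p = 0.137). For these genes the offset removed about 0.61 and 0.54 of the log2 difference. After it, log2 CPM of APAF1 was 5.50, 5.54 and 5.42 in controls and 4.90, 4.80 and 5.07 in the others. BIRC2 was at 6.13, 5.98 and 6.12 against 5.41, 5.80 and 5.61. Neither overlapped, but the share of all genes without overlap was not counted with the offset. Without the offset, groups did not overlap in 6413 of 15046 genes, in either direction. With an offset for length alone both still passed, as 2 of 8 genes, where 3.25% of all genes fell. With the length and GC offset and library 2 labelled overexpression left out, BIRC2 passed at -0.57 (edgeR adjusted p = 0.0424) and APAF1 did not (adjusted p = 0.0660), and 3.11% of all genes fell.

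XIAP and CYCS moved upward with the offset. XIAP had a log2 fold change of 0.47 (95% interval 0.081 to 0.86, edgeR adjusted p = 0.183), with corrected log2 CPM of 6.22, 6.22 and 6.41 in controls and 7.07, 6.50 and 6.65 in the others. These groups did not overlap, which was not counted over all genes with the offset. Every library labelled overexpression was the higher, the reverse of the sign without the offset. CYCS had 0.68 (0.091 to 1.26, edgeR adjusted p = 0.200), and its groups overlapped. BIRC3 was at -0.075 (95% interval -0.76 to 0.61), CASP8 at -0.087, CASP9 at -0.16 and DIABLO at -0.51, none of which passed. The median of the 8 genes was -0.12 with the offset.

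**Figure D4:**
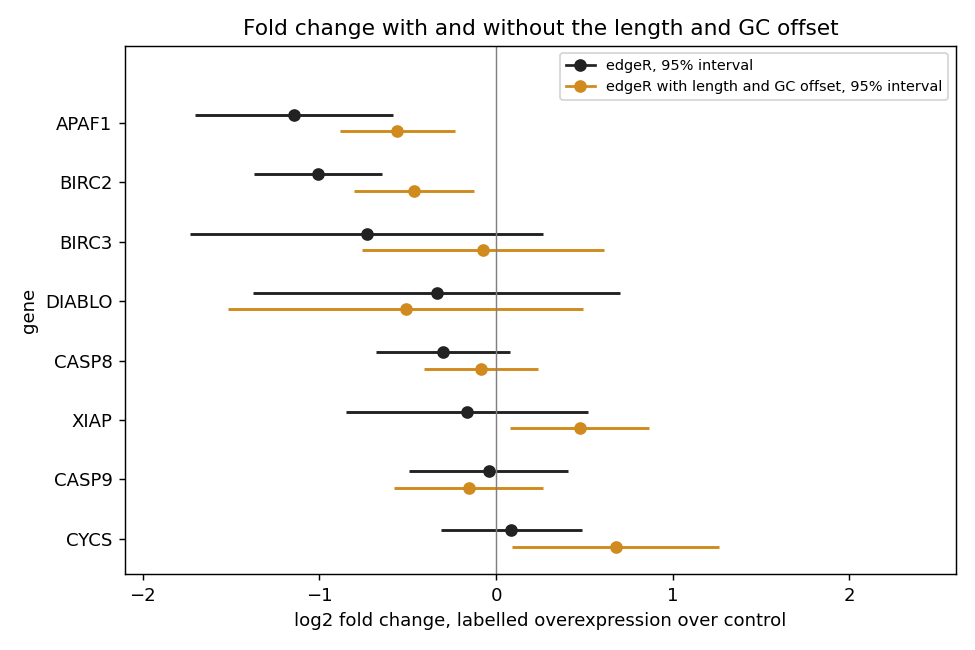
Log2 fold change of each gene with its 95% interval from the edgeR fit, in black, and from the fit with the length and GC offset, in orange. APAF1 and BIRC2 stay negative in both, and XIAP changes sign with the offset.

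Other genes of caspase and IAP signalling were taken from a list of 40, of which 38 were in the table and 37 were tested. Of these, 4 rose, 2 fell and 31 did not pass, and their median log2 fold change was 0.075. That is 10.8% up and 5.41% down, beside 9.62% and 9.49% of all genes. None of the listed genes passed without control 1 or control 2, where 0% of all genes rose, or without library 3 labelled overexpression, where 5.7% of all genes rose and 4.37% fell. Without control 3, 1 rose and 1 fell, beside 4.39% and 4.49% of all genes. Without library 2 labelled overexpression 7 fell, beside 12.2% of all genes. The initiator caspases CASP2 and CASP10 had log2 fold changes of -0.14 and -0.27, and CASP6, an executioner caspase, had 0.20, and none of these passed. Among the other IAP genes, BIRC5 (survivin, which also acts in cell division), BIRC6 and BIRC7 had 0.53, -1.05 and 0.46 without passing. BIRC6, a very large ubiquitin ligase gene, held 42.1, 55.9 and 28.98 CPM in controls and 30.3, 9.22 and 22.1 CPM in libraries 1, 2 and 3 labelled overexpression. HTRA2, a mitochondrial protease that antagonises IAP proteins, was the IAP antagonist tested, and it rose by 0.68 on the log2 scale (edgeR adjusted p = 0.0360), with means of 45.1 ± 4.62 and 72.2 ± 13.6 CPM (SD, n = 3 each).

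Of 9 death receptor and adaptor genes, 2 rose and 1 fell, beside 9.62% and 9.49% of all genes tested. The same shares apply to the other counts by role here, and each role holds too few genes to set it apart. The adaptors FADD, which recruits caspase-8, and TRADD rose by 0.72 and 0.93 on the log2 scale (edgeR adjusted p = 0.0193 and 0.0319), FADD from 37.8 ± 3.47 to 62.3 ± 1.95 CPM (SD, n = 3 each). The receptor gene FAS fell by 0.72 on the log2 scale (edgeR adjusted p = 0.0290), with means of 33.6 ± 2.72 and 20.4 ± 2.34 CPM. Of 9 genes that work with BIRC2 and BIRC3 in NF-kB signalling, TNFAIP3, the inhibitory enzyme A20 and itself an NF-kB target, fell by 1.15 on the log2 scale (edgeR adjusted p = 0.0181), with means of 149.7 ± 16.2 and 67.2 ± 23.0 CPM. The other 8 did not pass, among them RELB at 0.60 and NFKB1 at -0.35. None of 6 caspase substrate genes passed, and of 4 apoptosome inhibitors PTMA, prothymosin alpha, rose by 0.56 (edgeR adjusted p = 0.0316); PTMA has processed pseudogenes, so its count is uncertain. With the length and GC offset 0 of the 37 passed, beside 0.904% of all genes up and 0.485% down. With the length offset alone 0 also passed, beside 2.88% up and 3.25% down. The 4 that rose are short, at 1.22 to 1.79 kb, while FAS and TNFAIP3 are 3.70 and 4.67 kb long. Under the length and GC offset HTRA2, FADD, TRADD and PTMA had log2 fold changes of 0.065, 0.16, 0.056 and 0.20, and FAS had -0.22. TNFAIP3 had -0.91 (95% interval -1.47 to -0.35, edgeR adjusted p = 0.0959).

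**Figure D5:**
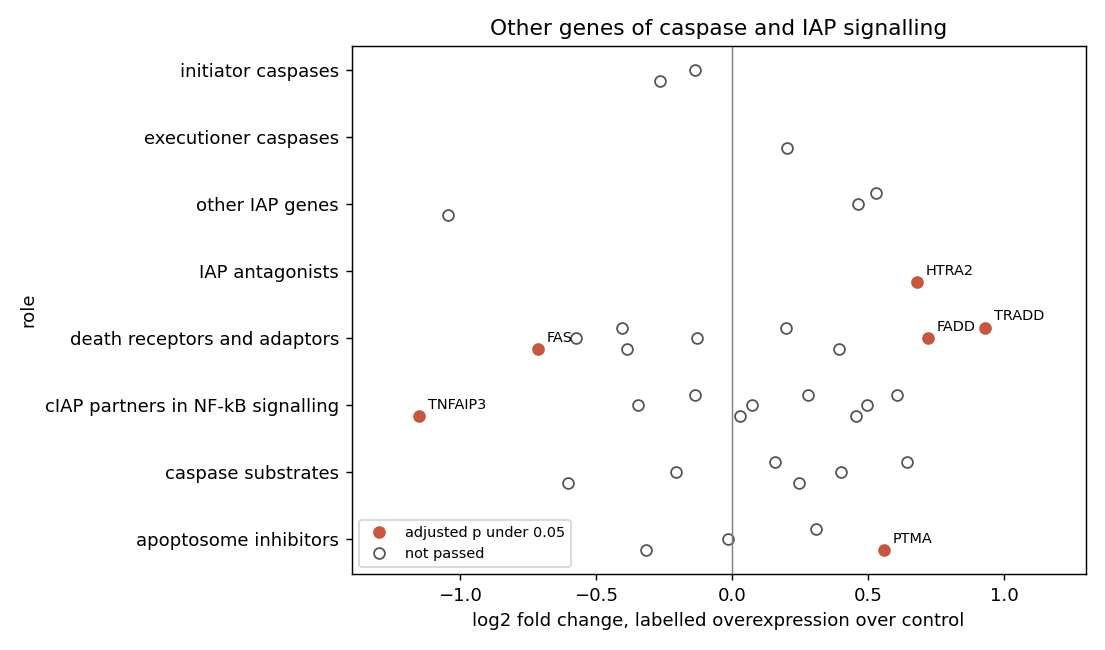
Log2 fold change of other genes of caspase and IAP signalling, one circle per gene in rows by role, with genes not reported here left out. Filled circles passed (HTRA2, FADD, TRADD and PTMA upward, FAS and TNFAIP3 downward) and open circles did not.

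The genes whose log2 CPM ran most like each member over the 6 libraries were found among 10533 or 10534 genes with a mean of 5 CPM or more. RAPH1 and RB1 were nearest to APAF1 (Pearson r of 1.00 and 0.999), ZNF215 and FUBP3 to BIRC2 (0.999 each), TBC1D8 and VPS50 to CASP8 (0.999 and 0.997), and ELAVL2 and PIAS1 to BIRC3 (0.994 each). HSP90B1 and NEMF were nearest to XIAP (0.991 and 0.990), COX18 and FOXD2-AS1 to CYCS (0.991 and 0.987), HASPIN and TSPYL2 to DIABLO (0.997 and 0.995) and CD82 and RBM23 to CASP9 (0.953 and 0.934). With 6 points that share the library differences above, such values are common: 1663 genes had an r above 0.9 with APAF1 and 1151 with BIRC2, against 3 with CASP9.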

How the data were processed

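RNA of 6 HK-2 libraries was sequenced after a stranded mRNA kit, per the labels' protocols. Trimmomatic 0.36 and GRCh38 come from the submitters' processing notes; aligner, counter and annotation release were not stated in the sources used here. The authors deposited raw counts for 18969 genes, each with at least 10 counts in all (16865460 to 23458333 per library). The authors also deposited FPKM, which rest on the same counts and 1 length per gene. Their deposited log2 fold changes and p-values come with no named test and are quoted only as theirs.

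Groups follow the labels. edgeR 4.0.16 (R 4.3.3, filterByExpr, TMM, glmQLFit, glmQLFTest) was fitted on group alone over 15046 genes, with Benjamini-Hochberg adjustment over all of them at 0.05. A standard error (SE) is the size of the log2 fold change over the square root of F. Intervals use the fit's degrees of freedom. CPM use TMM-scaled library sizes, and log2 CPM a prior count of 2. For the offset, library deviations were smoothed on gene length (counts over FPKM) and on GC content of the longest GENCODE 29 transcript (98.45% of genes) with mgcv 1.9.3. Alternatives were DESeq2 1.42.0, limma 3.58.1 on log2(FPKM + 1), other filters, pseudocounts and scalings, a replicate block, offsets and leaving out each library; the offset with a library left out was added after the data were seen. The fit was tested on simulated counts.

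Members, the list of 40 genes and alternatives were chosen with earlier results of these data known. All members are named, with listed genes past the adjusted p and the 2 genes of most similar pattern per member; other caspases and IAP genes, RELB and NFKB1 were named after their values were seen. Promoters are RefSeq's (GRCh38.p14), and all 8 genes matched. Some listed genes are not reported here.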

Additional observations from a re-analysis of the deposited data

How the results depend on the processing

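The counts of called genes depended on the libraries and on the model more than on the software. Both members that fell did so under DESeq2 size factors, the DESeq2 test and the length offset. They also fell with no filter on low counts, with a filter of 5 FPKM, and under limma with either pseudocount or without a filter. In these settings 3.25 to 16.6% of all genes fell. The call of APAF1 under the filter of 5 FPKM adds no support, since only the controls carried it past that filter. Limma on rescaled FPKM added CASP8 (-0.73), for 3 members down, beside 33.7% of all genes. There 14 listed pathway genes fell and 0 rose, with 532 genes up and 4210 down in all (median of all genes -0.35). With the length offset 434 genes rose, 489 fell and 0 listed pathway genes passed either way. Adding GC to that offset left 136 up and 73 down, with 0 members and 0 pathway genes. Listed pathway genes up were 2 under a limma pseudocount of 0.1 and 1 with no limma filter, where 942 genes rose in all. With a replicate block 0 genes passed, with or without the offset (4413 and 2217 genes had an unadjusted p under 0.05), so 0 members and 0 pathway genes did. Same-numbered libraries deviated from their group means with correlations of 0.0061, -0.51 and 0.088, and differently numbered ones with -0.50 to 0.60. The labels do not say whether equal numbers mark paired cultures. These correlations cannot decide it, because the libraries also share the length and GC differences.

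When single libraries were left out, genes up ran from 0 to 1775, genes down from 0 to 1874, members down from 0 to 3, and pathway genes from 0 to 4 up and 0 to 7 down. The lowest counts came without controls 1 and 2 (3962 and 3863 genes with an unadjusted p under 0.05, edgeR). With the offset as well, the ranges were 0 to 576 up (78 and 46 without libraries 1 and 3 labelled overexpression) and 0 to 479 down (27 and 3) for all genes, 0 to 1 for members down, and 0 to 1 up and 0 to 3 down for pathway genes.

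Signs changed for 4 members. CYCS was at -0.056 or -0.057 on FPKM with limma (-0.36 rescaled) and ran from -0.067 to 0.19 with a library left out. CASP9 ran from -0.11 to 0.044 and XIAP from -0.55 to 0.12 in the same way. XIAP was at 0.27 with the length offset, 0.47 with length and GC, 0.45 with the block added, and 0.44, 0.44, 0.54, 0.29, 0.59 and 0.52 with the offset and controls 1 to 3, then libraries 1 to 3 labelled overexpression, left out in turn. BIRC3 then ran from -0.44 to 0.15, with 0.12 and 0.030 without libraries 2 and 3. Depth limits DIABLO, at 7 to 35 counts. The cause of each change was not tested. CASP9 under the filter of 5 FPKM, and DIABLO under each filter on FPKM, gave no value. APAF1 passed the filter of 5 FPKM only through the controls.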
